A study of Sus scrofa with 6 samples.

Results

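VCAN, POSTN, THBS2, SPARCL1, FAP, THY1 and SCARA5, 7 genes that are widely used to describe fibroblasts and stromal cells, were followed across porcine growth plate and articular cartilage and the chondrocytes grown from them. The members were all probe sets that the platform annotation assigns to these symbols, which gave 15 of 23999 probe sets, and 7 of the 6765 genes with a symbol. The genes were chosen by their signals on these same 6 arrays, which were already known when they were proposed. Their levels and differences are therefore given as a description, with no p-value. The study used 6 Affymetrix arrays, 1 for each of 6 conditions, so no condition was replicated. The growth plate conditions were native growth plate cartilage and cultures of isolated growth plate chondrocytes at day 10 and day 20 of differentiation. The articular conditions were native articular cartilage and cultures of isolated articular chondrocytes at day 10 and day 20. All cultures were grown with serum and antibiotics and without further supplements, in an atmosphere of 5% oxygen. The breed, age, sex and number of animals, and whether samples were pooled, are not given in the sources used here.

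These genes encode proteins that shape the matrix around a cell or sit on its surface. Matricellular proteins are secreted into the matrix, where they modulate how cells attach to it, how collagen fibrils assemble and how growth factors act, without being main structural components themselves. In cartilage the dominant hyaluronan-binding proteoglycan is aggrecan, whereas versican is typical of looser connective tissue. Chondrocytes that are released from their matrix and grown attached to plastic are known to take on a flattened, fibroblast-like form and to express genes of fibrous tissue.

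Signals were used as deposited. The 40th percentile of all signals, a signal of 36.1, served as a floor, to which lower signals were raised before differences were taken. Folds that involve such a signal are bounds and are written "at least". All 7 genes passed the filter of 2 arrays above the floor, so 5601 genes including these 7 were compared. FAP, THBS2, SPARCL1, THY1 and VCAN were above the floor on all 6 arrays, POSTN on 4 and SCARA5 on 3, and the last 2 passed only through the arrays on which they were high. The native articular array stood somewhat apart, since its correlation with the other 5 averaged 0.889, whereas theirs averaged 0.930 to 0.939, and the differences between culture and native tissue are therefore also given for growth plate alone. The comparison of the 2 native tissues cannot be made without it. On an array of a whole tissue or culture, a change in how many cells express a gene and a change in RNA per cell cannot be told apart.

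The labelled cell type was checked against its defining genes. ACAN, the aggrecan core protein, had signals of 14874, 12466 and 6596 in native, day 10 and day 20 growth plate samples and 15883, 10781 and 10267 in the articular ones. COL2A1, the main cartilage collagen, had 1615, 1361 and 1603 in growth plate samples and 2929, 1164 and 1689 in articular samples. HAPLN1, the link protein of cartilage matrix, was level at 14120, 13922 and 15365 in growth plate samples and 16339, 12888 and 16970 in articular samples. COMP, a cartilage thrombospondin, had 5152, 5098 and 5326 in growth plate samples and 3390, 6170 and 8206 in articular samples, where it was higher in culture. All 4 stayed far above the floor in every culture. SOX9, the transcription factor that drives cartilage genes, had 175, 125 and 118 in growth plate samples and 982, 81.0 and 76.8 in articular samples, and was more than 2-fold lower in culture only on the articular side. The cultures therefore held chondrocyte transcripts alongside those of the 7 genes.

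**Figure D1:**
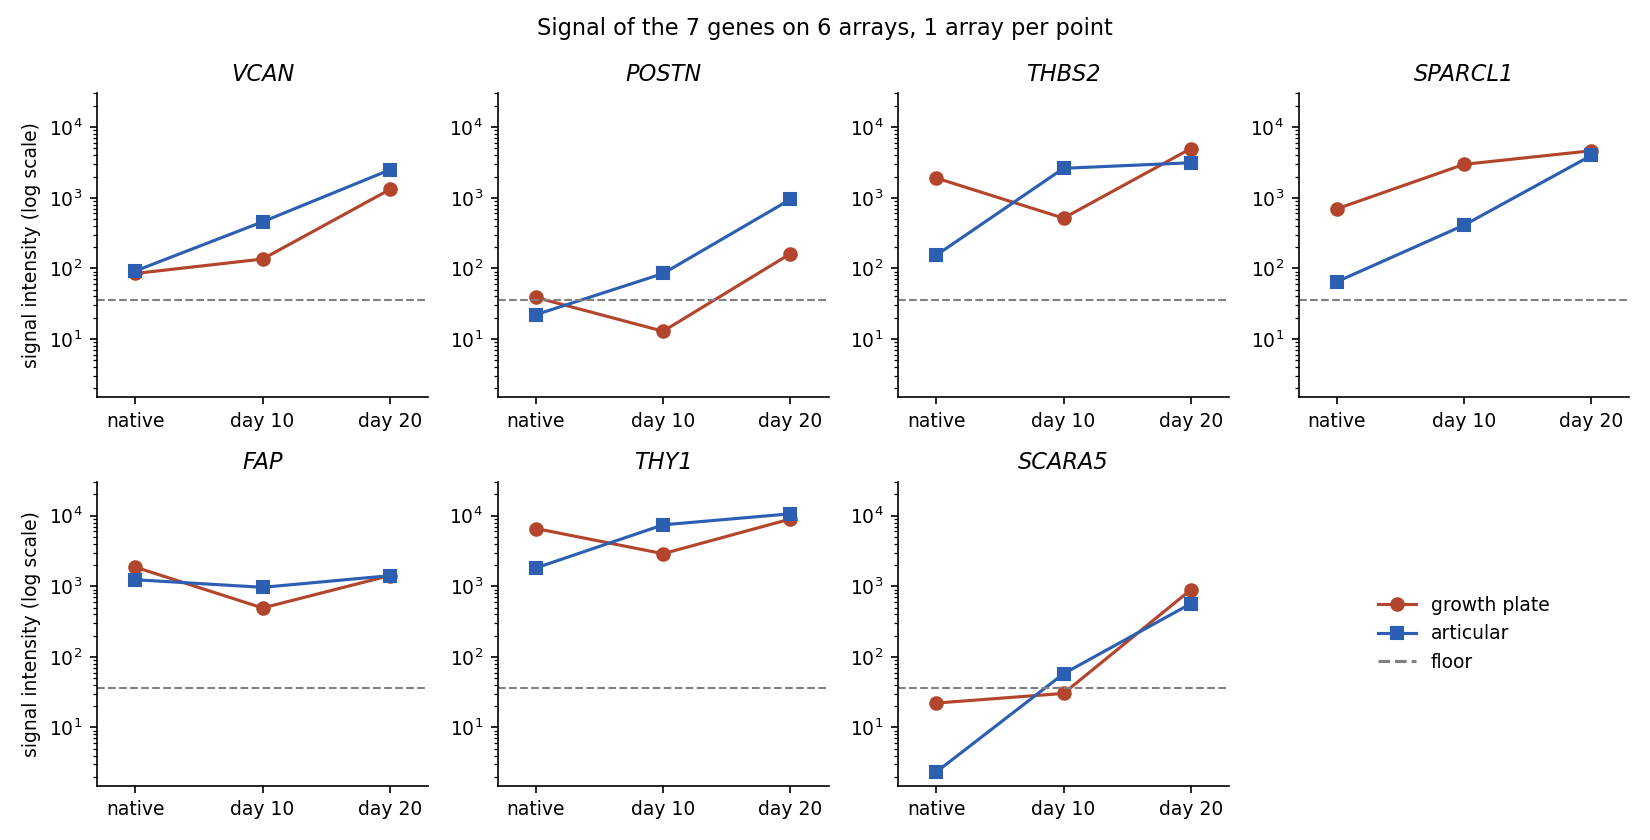
Signal intensity (log axis) of each of the 7 genes at native, day 10 and day 20 stages, in growth plate (circles) and articular samples (squares), with 1 array per point and the floor of 36.1 dashed. Each gene is higher at day 20 than at day 10 in both tissues. FAP, THBS2, THY1 and POSTN are lowest among growth plate samples at day 10, as are 32% of all genes. The POSTN signal at that point lies under the floor, and its native signal is barely above it.

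VCAN encodes versican, a large chondroitin sulfate proteoglycan that binds hyaluronan. In growth plate samples its signal was 84.8 in native tissue, 136 at day 10 and 1312 at day 20. In articular samples it was 92.0, 457 and 2489. The native tissues were nearly equal, the articular culture was ahead at day 10, and day 20 was the highest stage in both. Against native tissue, day 20 was 15.5-fold higher in growth plate and 27.1-fold higher in articular samples. At day 10 the growth plate culture was only 1.60-fold above its native tissue, and the articular culture was 4.97-fold above its own. VCAN was the only one of the 7 genes that was lower in growth plate than in articular samples at all 3 stages, by 1.09-fold, 3.37-fold and 1.90-fold, and 19.5% of all genes were lower at all 3.

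POSTN encodes periostin, a secreted protein of periosteum, ligament and healing tissue that binds integrins and takes part in collagen assembly. Its growth plate signals were 38.8 in native tissue, 12.9 at day 10 and 161 at day 20, and its articular signals were 22.1, 84.7 and 949. Native growth plate cartilage lay barely above the floor, and native articular cartilage and the day 10 growth plate culture lay below it. POSTN was therefore clear of the floor mainly at day 20, and the articular culture of that day was 5.88-fold above the growth plate one. In articular samples day 20 was 11.2-fold above day 10 and at least 26.3-fold above native tissue. In growth plate samples day 20 was at least 4.47-fold above day 10 and 4.16-fold above native tissue. These growth plate log2 differences of 2.16 and 2.06 depended on the floor, and both were 0.25 with a floor at the 60th percentile.

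THBS2 encodes thrombospondin 2, a matricellular protein that restrains blood vessel growth and is needed for regular collagen fibrils in mice. Its signals were 1903 in native growth plate cartilage, 515 at day 10 and 4979 at day 20. In articular samples they were 154 in native cartilage, 2617 at day 10 and 3137 at day 20. The tissues followed different courses: growth plate was lowest at day 10, while articular cartilage was lowest in native tissue and had reached nearly its day 20 level by day 10. The day 10 culture was 3.70-fold lower than native tissue in growth plate and 17.0-fold higher in articular samples. Growth plate was therefore 12.4-fold higher than articular cartilage in native tissue, 5.08-fold lower at day 10 and 1.59-fold higher at day 20.

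SPARCL1 encodes hevin, a relative of the collagen-binding protein SPARC that weakens cell attachment. It had signals of 697, 2978 and 4635 in native, day 10 and day 20 growth plate samples, and of 64.7, 410 and 3976 in the articular ones. Every culture was above its native tissue, and growth plate was above articular cartilage at all 3 stages, as it was for 15.3% of all genes. Day 20 was 61.5-fold above native tissue in articular samples and 6.65-fold above it in growth plate samples. The articular ratio exceeded those of VCAN, THBS2, FAP and THY1, while POSTN and SCARA5 have only lower bounds for theirs. Growth plate was 10.8-fold higher than articular cartilage in native tissue and 7.27-fold higher at day 10. At day 20 the ratio was 1.17, since the articular culture had come level.

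FAP encodes fibroblast activation protein, a membrane serine protease of the dipeptidyl peptidase family that cuts after proline and is used as a marker of activated fibroblasts. Its signals were 1867, 493 and 1420 in native, day 10 and day 20 growth plate samples and 1239, 967 and 1414 in articular samples. FAP was thus already high in both native cartilages. It was the least variable of the 7 genes, with a 3.79-fold range over the 6 arrays, against 5.85-fold for THY1 and 71.6-fold for SPARCL1, and at least 24.7-fold for SCARA5 and at least 26.3-fold for POSTN, whose lowest signals lay under the floor. The growth plate day 10 culture stood lowest, 3.79-fold below native growth plate cartilage and 2.88-fold below the day 20 culture. The articular signals lay within 1.46-fold of each other, and the day 20 cultures of both tissues were equal to within 1.004-fold.

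THY1 encodes CD90, a lipid-anchored surface glycoprotein by which mesenchymal stromal cells and fibroblasts are commonly sorted. Its signals were 6583, 2894 and 8968 in native, day 10 and day 20 growth plate samples and 1818, 7416 and 10631 in articular samples. The order of the stages was the same as for THBS2, with the lowest growth plate signal at day 10 and the lowest articular signal in native tissue. The day 10 culture was 2.27-fold lower than native tissue in growth plate and 4.08-fold higher in articular samples. At day 20 growth plate and articular cultures differed by 1.19-fold.

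SCARA5 encodes a class A scavenger receptor, known in mice as a receptor for ferritin and used as a marker of certain fibroblasts. Its signals were 22.2, 30.4 and 893 in native, day 10 and day 20 growth plate samples and 2.35, 57.7 and 568 in articular samples. Both native tissues and the day 10 growth plate culture lay below the floor, the day 10 articular culture lay just above it, and both day 20 cultures stood clear of it. Day 20 was at least 24.7-fold above day 10 in growth plate samples and 9.83-fold above day 10 in articular samples. SCARA5 therefore appeared mainly between day 10 and day 20, and the day 20 growth plate culture was 1.57-fold above the articular one.

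Where a gene had several probe sets, those above the floor followed the same course. The second VCAN probe set had 17.8, 25.4 and 230 in growth plate samples and 8.31, 102 and 441 in articular samples. The second THY1 probe set had 246, 117 and 465 in growth plate samples and 30.9, 324 and 540 in articular samples. The third THY1 probe set, above the floor only at day 20, had 12.2, 2.80 and 102 in growth plate samples and 2.13, 28.2 and 75.1 in articular samples. The 2 THY1 probe sets with signal above the floor before day 20 were both lowest at day 10 among growth plate samples and lowest in native tissue among articular samples. The third has no order before day 20, since those 4 signals lay under the floor. The other 3 VCAN probe sets and the second probe sets of POSTN and SPARCL1 did not exceed the floor on any array and carry no information on these genes here. FAP, THBS2 and SCARA5 had 1 probe set each, so their courses rest on it.

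**Figure D2:**
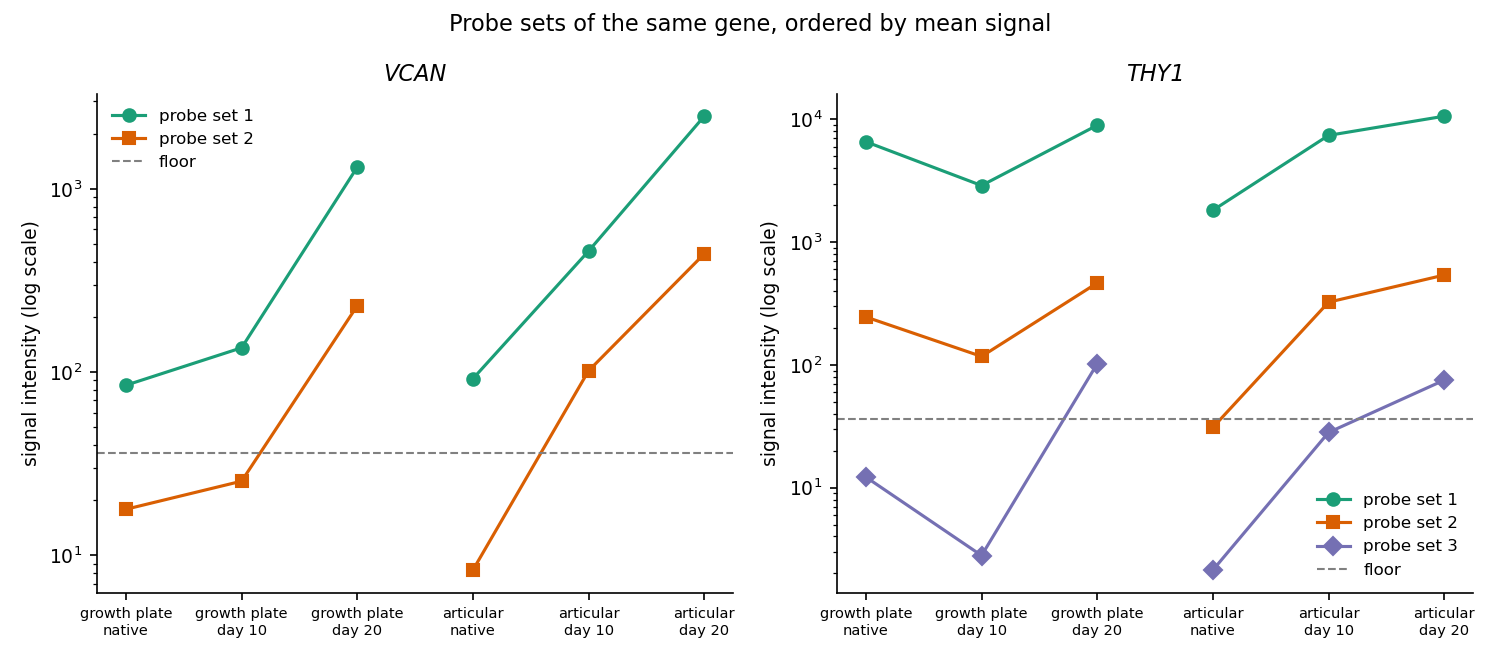
Signal intensity (log axis) of the 2 VCAN and 3 THY1 probe sets that were above the floor (dashed, 36.1) on at least 2 arrays, in growth plate and then articular samples, with 1 array per point. All 5 are highest at day 20 in both tissues, and the 2 brighter THY1 probe sets share the low growth plate signal at day 10. Points under the dashed line have no order.

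The first comparison set cultures against native tissue. On the mean over the 4 pairs of a culture and its native tissue, 5 of the 7 genes were at least 2-fold higher in culture (VCAN, POSTN, THBS2, SPARCL1 and SCARA5) and 0 were at least 2-fold lower, where 6.5% of all genes were higher and 3.84% lower by the same rule. The median of the 7 mean log2 differences was 1.98, beside 0.06 over all genes. The standard errors given here come from a limma fit to all genes, in which tissue and stage act additively. They combine what that model leaves unexplained in a gene's own 6 signals (2 residual degrees of freedom) with a spread estimated over all genes of similar signal (3.74 prior degrees of freedom), and no replicate enters them. The mean log2 difference was 3.36 ± 0.65 (SE) for SPARCL1, 2.93 ± 0.39 for VCAN, 2.32 ± 0.36 for SCARA5, 1.98 ± 1.10 for THBS2 and 1.97 ± 0.55 for POSTN. The SCARA5 and POSTN values include cultures and native tissue raised to the floor and are no bounds. THY1 had 0.96 ± 0.61 and FAP had -0.62 ± 0.34. In that fit 0 of 5601 genes (0%) were called in either direction at an adjusted p under 0.05 and 2-fold, while the unadjusted p was under 0.05 for 1089 genes.

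By single pairs, the growth plate culture at day 10 had 1 of the 7 genes at least 2-fold above native tissue, SPARCL1 (7.43% of all genes), and 3 at least 2-fold below it, THBS2, FAP and THY1 (6.86%). At day 20 it had 5 above, VCAN, POSTN, THBS2, SPARCL1 and SCARA5 (4.57%), and 0 below (5.71%). The articular culture had 5 above its native tissue at day 10 (16.1% of all genes) and 0 below (9.59%), and at day 20 it had 6 above (14.9%), all but FAP, and 0 below (8.86%). Day 20 was at least 2-fold above native tissue in both tissues for 5 of the 7, as it was for 2.61% of all genes. These 4 pairs share their 2 native arrays.

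The 2 tissues differed in this comparison. In growth plate samples 3 of the 7 genes were at least 2-fold higher on the mean of both culture days, where 3.59% of all genes were higher. In articular samples 6 were higher, beside 14.6% of all genes, and 0 were 2-fold lower, beside 8.37%. All of these articular values rest on the native articular array. The 3 growth plate genes were VCAN, SPARCL1 and SCARA5, with mean log2 differences of 2.32, 2.41 and 2.31. The SCARA5 value is the mean of a difference between 2 signals under the floor, set to 0, and of at least 4.63 at day 20, so it is no bound. FAP was at least 2-fold lower in growth plate cultures, at -1.16, as were 4.36% of all genes. THBS2 had mean log2 differences of -0.25 in growth plate and 4.22 in articular samples, and THY1 had -0.37 and 2.29. At day 10 alone, THBS2 and THY1 were at least 2-fold below native tissue in growth plate and at least 2-fold above it in articular samples, as were 0.768% of all genes. POSTN had -0.10 in growth plate and at least 1.23 in articular samples, the first of these between a signal just above the floor and the floor itself, and 17.5% of all genes differed in these directions by any amount.

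The second comparison set day 20 of culture against day 10, and it does not use the native arrays. All 7 genes were higher at day 20 than at day 10 in both tissues, as were 33% of all genes. On the mean of the 2 tissues all 7 were at least 2-fold higher, beside 4.91% of all genes, and 0 were 2-fold lower, beside 4.68%. The median log2 difference of the 7 was 1.96 beside -0.02 over all genes. SCARA5 had the largest mean log2 difference of the 7, 3.96 ± 0.41 (SE of the limma fit). It was above the floor on only 3 arrays. Its signals under the floor were set equal, so their spread is missing from this SE. VCAN had 2.86 ± 0.46, POSTN 2.82 ± 0.63, SPARCL1 1.96 ± 0.75, THBS2 1.77 ± 1.26, THY1 1.08 ± 0.70 and FAP 1.04 ± 0.40. SCARA5 and POSTN are lower bounds, because the day 10 growth plate culture lay under the floor for both. In the limma fit 0 of 5601 genes (0%) were called in either direction, while the unadjusted p was under 0.05 for 820 genes.

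Which genes carried the difference between the days depended on the tissue. In growth plate samples 6 of the 7 were at least 2-fold higher at day 20 (6.61% of all genes), the exception being SPARCL1 at 1.56-fold, which was already high at day 10, and 0 were lower (7.07%). In articular samples 4 were (5.78% of all genes), namely VCAN, POSTN, SPARCL1 and SCARA5, and 0 were lower (5.57%). THBS2, FAP and THY1 were 1.20-fold, 1.46-fold and 1.43-fold higher at day 20 in articular samples, against 9.67-fold, 2.88-fold and 3.10-fold in growth plate samples. VCAN, POSTN and SCARA5 were at least 2-fold higher at day 20 in both tissues, as were 2.46% of all genes.

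The low growth plate signal at day 10 set these genes apart from one another. THBS2, FAP and THY1 were at least 2-fold lower in the day 10 growth plate culture than in both native growth plate cartilage and the day 20 culture, as were 2.73% of all genes. Their log2 differences to native tissue were -1.89, -1.92 and -1.19. SPARCL1 differed from native tissue in the opposite direction, by 2.10, and VCAN by 0.68. POSTN and SCARA5 were under the floor at that point. All of these values rest on the single day 10 growth plate array, whose mean correlation to the other arrays was 0.930, close to those of the other cultured arrays.

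The third comparison set growth plate against articular samples at each stage, and the direction of the difference changed with the stage. In native tissue 3 of the 7 genes were at least 2-fold higher in growth plate (THBS2, SPARCL1 and THY1, beside 12.9% of all genes) and 0 were 2-fold lower (7.91% of all genes). At day 10, 1 gene, SPARCL1, was at least 2-fold higher in the growth plate culture (3.43% of all genes) and 4, VCAN, POSTN, THBS2 and THY1, were at least 2-fold lower (3.89%). At day 20, 0 were higher (2.82%) and 1, POSTN, was at least 2-fold lower (4.09%). The median log2 difference of the 7 genes was 0.59 in native tissue, -1.23 at day 10 and 0.01 at day 20, while that of all genes lay between -0.04 and 0.00 at every stage.

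On the mean over the 3 stages, SPARCL1 was higher in growth plate by a log2 difference of 2.17 ± 0.61 (SE), and 3% of all genes were at least 2-fold higher. POSTN was lower in growth plate by -1.23 ± 0.51 and VCAN by -0.93 ± 0.37, and 2.23% of all genes were at least 2-fold lower. The differences of THBS2, THY1, FAP and SCARA5 were smaller than their standard errors, at 0.65 ± 1.03, 0.08 ± 0.57, -0.12 ± 0.32 and -0.01 ± 0.34. The POSTN and SCARA5 values include signals raised to the floor in native tissue and at day 10, and are no bounds. For THBS2 and THY1 the differences in native tissue and at day 10 were each over 2-fold and of opposite sign. In the limma fit 3 of 5601 genes were called, 2 higher (0.0357%) and 1 lower (0.0179%), none of them among the 7.

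**Figure D3:**
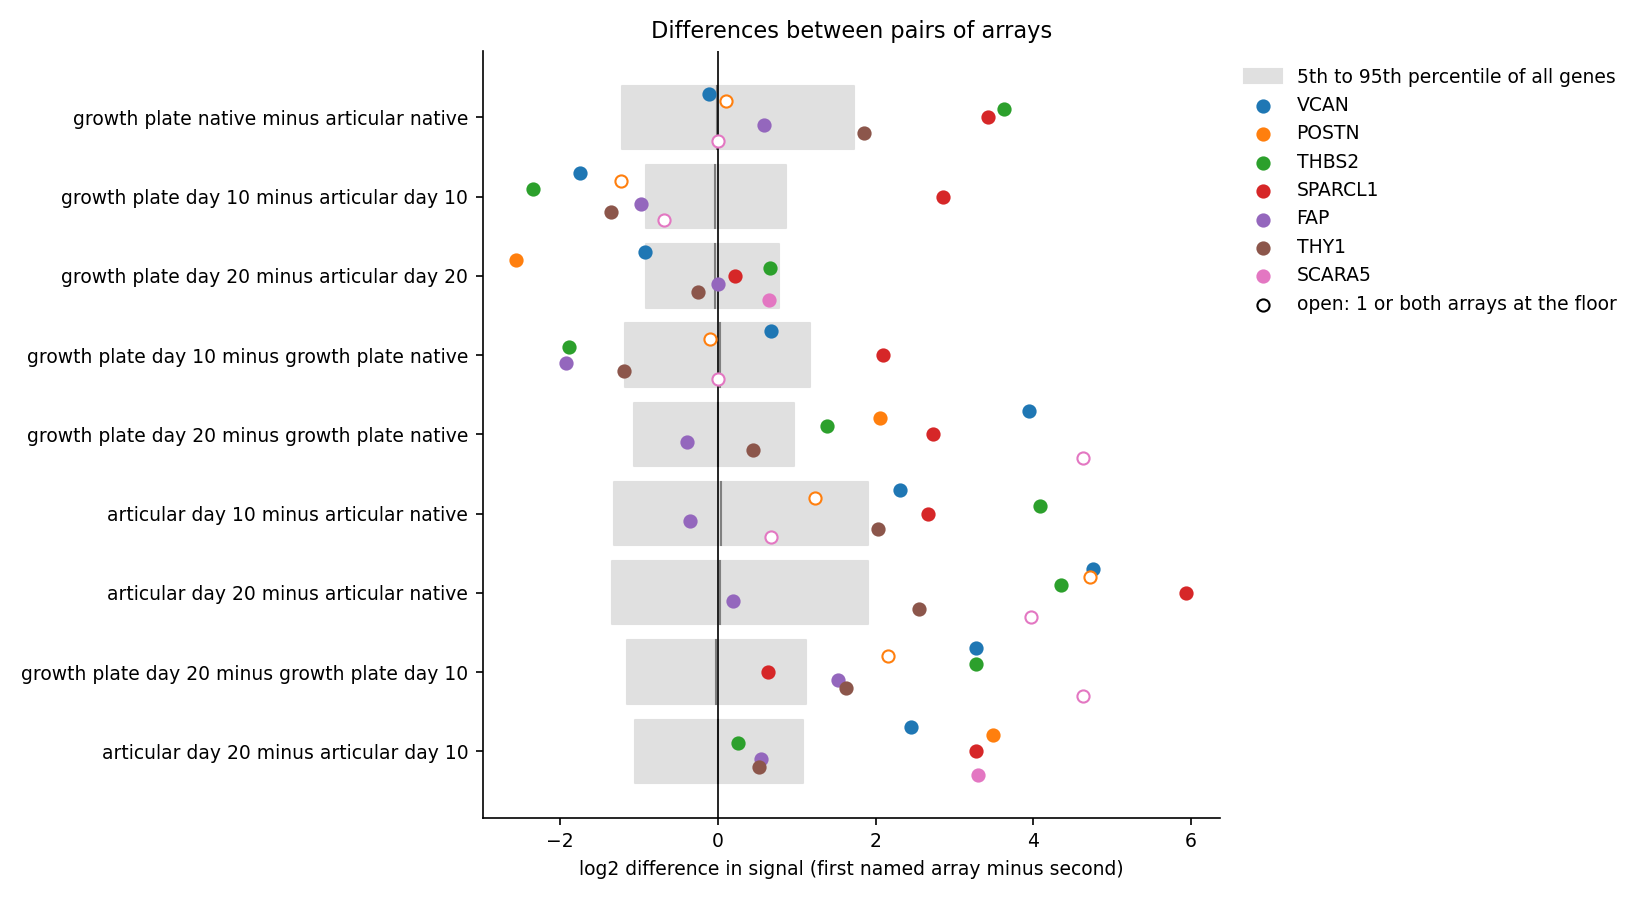
Log2 difference in signal of each of the 7 genes in the 9 pairs of arrays, first named array minus second, with the 5th to 95th percentile of all genes as a grey band and their median as a line. Open circles involve an array at the floor. At day 20 against day 10 all points lie above 0. Growth plate against articular samples changes side between native tissue and day 10 for THBS2, THY1, FAP and POSTN. Only THBS2 and THY1 differ by over 2-fold on both sides.

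The 7 genes did not form one pattern. Over the 6 arrays, which share their native samples and their culture days, the 21 pairwise Pearson correlations of log2 signal ranged from -0.14 to 0.98 with a median of 0.66. The most alike were THBS2 and THY1 (r = 0.98), then VCAN and POSTN (r = 0.94) and VCAN and SCARA5 (r = 0.92). FAP stood furthest from the rest, with correlations of -0.14 to SPARCL1, 0.20 to VCAN and at most 0.45, to THY1. With 6 arrays these values are descriptions of the courses.

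The genes of most similar course were found among the 879 genes with a range of at least 4-fold over the 6 arrays, by Pearson's r of log2 signal. SCARA5 was most like GAL, which encodes the neuropeptide galanin (r = 0.999), and MFAP5, a microfibril-associated glycoprotein of elastic fibres (r = 0.997). MFAP5 had signals of 15.4, 27.0 and 354 in growth plate samples and 14.6, 41.1 and 246 in articular samples, the same late appearance as SCARA5. All 3 genes were under the floor on the same 3 arrays, which were therefore set equal before r was taken. Both THBS2 (r = 0.98) and THY1 (r = 0.99) were most like MXRA8, an adhesion protein of the cell surface, with signals of 960, 364 and 2030 in growth plate samples and 186, 1316 and 2316 in articular samples. MXRA8 shared their low growth plate signal at day 10 and low native articular signal.

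FAP was most like ALOX5AP, which helps to start leukotriene synthesis (r = 0.98), and C1S, a protease of the complement cascade (r = 0.98). C1S had signals of 2886, 246 and 2321 in growth plate samples and 1932, 696 and 2425 in articular samples, lowest at day 10 in both tissues. VCAN was most like CES1, a carboxylesterase (r = 0.99), and NR2F2, a nuclear receptor (r = 0.98). POSTN was most like FXYD7 (r = 0.98) and KCNJ8, a potassium channel subunit (r = 0.98), and SPARCL1 like S100A1, a calcium-binding protein (r = 0.98), and PLPP1, a lipid phosphatase (r = 0.97). Between 4 and 13 genes exceeded r = 0.95 with each of the 7.

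Lists of related genes were compared with the 7. None of their genes was called in the limma fit in any of the 3 comparisons, so their counts are by size alone, at 2-fold. The counts over both tissues use the mean over pairs. By that rule 6.5% of all genes were higher and 3.84% lower in culture, which is the background for those culture counts. The counts within growth plate use a single pair of arrays for each day. Their background is 7.43% of all genes higher and 6.86% lower at day 10, and 4.57% higher and 5.71% lower at day 20. Other matricellular proteins were mostly near their native level or below it. Of 23 listed, 10 had a probe set and 9 passed the filter, and in culture 1 was higher and 1 lower than native tissue, with a median log2 difference of -0.15. Within growth plate, 0 were higher on either day and 1 was lower, at day 20. SPARC, the relative of SPARCL1, was level, with signals of 14899, 13645 and 17700 in growth plate samples and 17338, 16102 and 18162 in articular samples. THBS1, a relative of THBS2, was also level, with a log2 difference of -0.15 ± 0.15 (SE). THBS3, another thrombospondin, had signals of 1744, 1128 and 1060 in growth plate samples and 111, 1472 and 2009 in articular samples, so its mean difference of 1.64 ± 0.99 rests on the native articular array. MFGE8, a bridging protein for dying cells, was lower in culture at -1.55 ± 0.28, and the bone matrix protein gene SPP1 and the tenascin gene TNC had -0.78 ± 0.39 and -0.55 ± 0.22.

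Of these 7 lists the fibroblastic matrix had the highest medians, 0.68 for culture minus native and 1.05 for day 20 minus day 10. All 12 of the 20 listed that had a probe set passed the filter. In culture 5 were higher and 2 were lower than in native tissue, beside 6.5% and 3.84% of all genes, and at day 20 6 were higher and 0 lower than at day 10, beside 4.91% and 4.68%. Within growth plate, 1 was higher and 3 lower than native tissue at day 10, and 5 were higher and 0 lower at day 20. LUM, which encodes the collagen-binding proteoglycan lumican, had signals of 956, 780 and 10749 in growth plate samples and 15.5, 1498 and 2784 in articular samples. COL1A2, a chain of the main collagen of bone and fibrous tissue, had 432, 381 and 2343 in growth plate samples and 146, 585 and 838 in articular samples. Both had their lowest articular signal in native tissue and a growth plate day 10 signal slightly below the native one. COL6A2, a pericellular collagen chain, was lower in culture by -1.48 ± 0.27, so the list held members of both directions.

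The surface proteins, receptors and transcription factors were mixed. Of 9 mesenchymal surface proteins that passed the filter out of 18 listed, 1 was higher and 1 lower in culture. Within growth plate, 0 were higher and 3 lower at day 10, and 1 was higher and 3 lower at day 20. CDH11, a cadherin of mesenchymal cells, was higher, with 556, 1100 and 1785 in growth plate samples and 172, 1520 and 2248 in articular samples. VCAM1, an adhesion protein of inflamed and stromal cells, was lower on the mean, at -1.17 ± 0.46. It had 749, 107 and 288 in growth plate samples and 700, 399 and 872 in articular samples, where day 20 was above native tissue. PDGFRB, a growth factor receptor of stromal cells and pericytes, had 1013, 305 and 941 in growth plate samples and 1059, 839 and 2117 in articular samples, and was lowest in the day 10 growth plate culture, as FAP was. PDPN, the surface protein podoplanin, was low only at day 20 of growth plate culture, with 4509, 5614 and 757 in growth plate samples and 4404, 5460 and 3634 in articular samples. ENG, a receptor component for TGF-beta, had -0.55 ± 0.28.

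Of 7 integrins and other receptors that passed the filter out of 12 listed, 1 was higher and 1 lower in culture. Within growth plate, 1 was higher and 0 lower at day 10, and 1 was higher and 1 lower at day 20. ITGA8, an integrin chain of mesenchymal and smooth muscle cells, had 66.9, 171 and 853 in growth plate samples and 17.9, 161 and 859 in articular samples, with a mean log2 difference of at least 2.94. CD47, a thrombospondin receptor, was lower at -1.38 ± 0.23. ITGAV and ITGB1, integrin chains through which periostin and other matrix proteins are bound, had -0.63 ± 0.19 and 0.03 ± 0.15, and ITGB5 had -0.36 ± 0.39. Only 6 of 18 versican and hyaluronan partners passed the filter, and on the mean over pairs 0 were 2-fold apart in culture. HYAL2, a hyaluronidase gene, had 0.93 ± 0.31, ACAN -0.65 ± 0.21 and the fibrillin gene FBN1 0.26 ± 0.22. ADAMTS1, a protease that cleaves versican, had 0.22 ± 0.96, a mean of opposite courses. Its signals were 1018, 944 and 315 in growth plate samples and 54.9, 52.3 and 371 in articular samples. Within growth plate, 1 partner was higher and 0 lower at day 10, and 0 were higher and 2 lower at day 20. Of 7 scavenger receptors and iron-handling genes, 0 were higher and 1, the iron transporter gene SLC11A2, was lower, at -1.38 ± 0.32. Within growth plate, 0 were higher and 1 lower on each day. FTH1 and FTL, the chains of ferritin, were level at -0.07 ± 0.16 and -0.10 ± 0.21, and HMOX1, TFRC and TF had -0.66 ± 0.22, -0.41 ± 0.27 and 0.39 ± 0.31. TFRC was above the floor only in native and day 10 articular samples, so its value includes signals raised to the floor and is no bound. Of 14 mesenchymal transcription factors only SNAI1, PRRX1 and TCF21 passed the filter, with -0.82 ± 0.27, 0.74 ± 0.22 and -0.02 ± 0.29. Within growth plate, 0 were higher and 0 lower at day 10, and 1 was higher and 1 lower at day 20. PRRX1 had 1276, 1214 and 3030 in growth plate samples and 841, 1230 and 2007 in articular samples. SNAI1 had 985, 723 and 308 in growth plate samples and 952, 784 and 514 in articular samples.

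**Figure D4:**
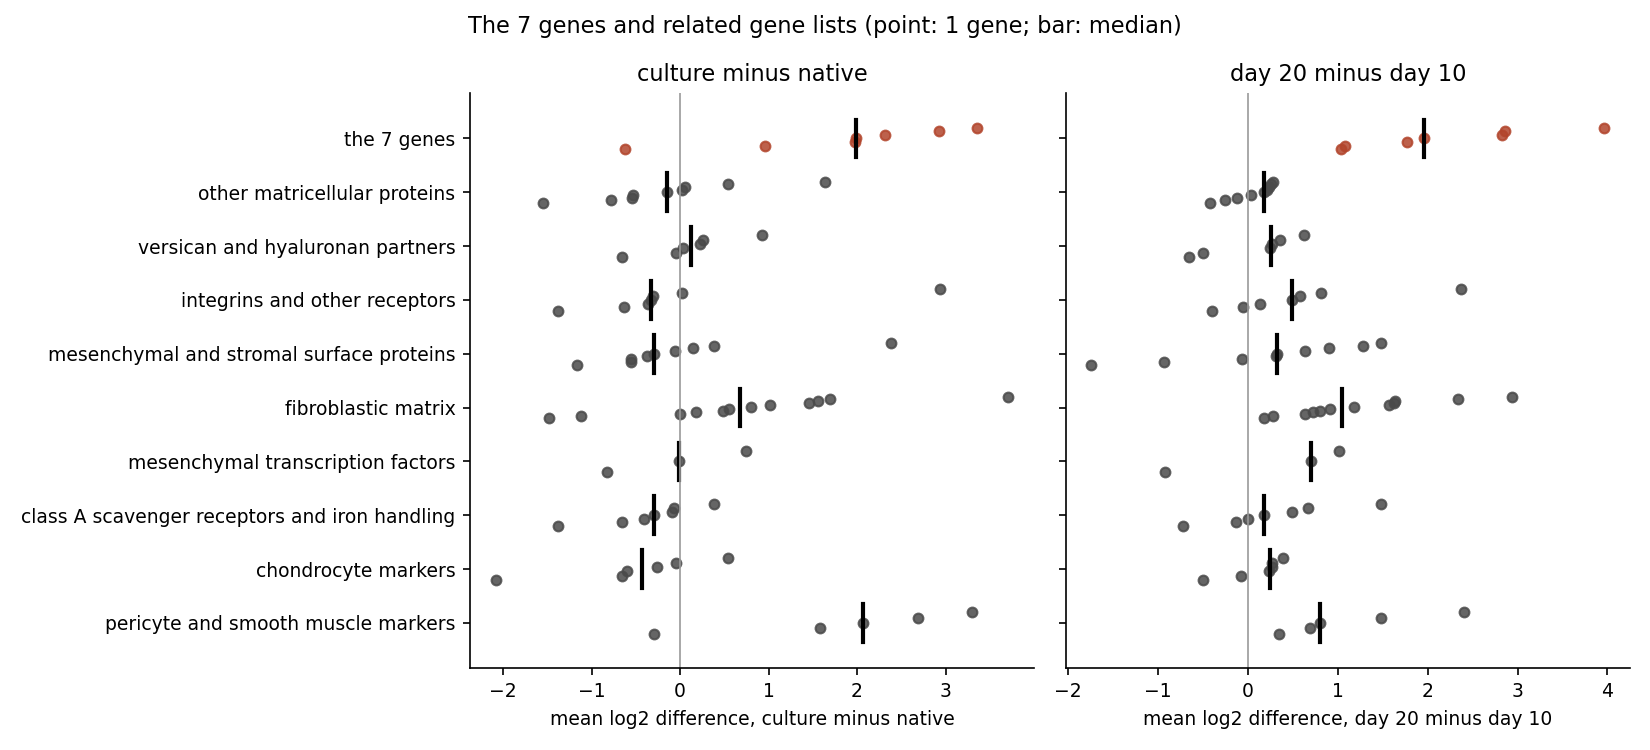
Mean log2 difference of culture minus native (left) and day 20 minus day 10 (right) for the 7 genes (top row) and for related lists, where a point is 1 gene that passed the filter and a bar is the list's median. The medians of the 7 genes are 1.98 and 1.96, and those of the fibroblastic matrix list are 0.68 and 1.05. The pericyte and smooth muscle markers have medians of 2.06 and 0.80, the first of them above that of the 7 genes.

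Markers of other cell types that such samples could hold were measured beside the 7 genes. The endothelial markers CDH5, VWF, KDR, TEK and TIE1, 5 of 8, were above the floor on no array, and PECAM1 and ESAM were above it on all 6. PECAM1 was highest in native articular cartilage, with 67.2, 52.9 and 52.6 in growth plate samples and 277, 118 and 65.6 in articular samples. ESAM had 89.3, 206 and 106 in growth plate samples and 74.5, 82.9 and 127 in articular samples. CLDN5 was clear of the floor only at day 20, as SCARA5 was, with 29.1, 3.87 and 94.2 in growth plate samples and 39.8, 26.9 and 99.5 in articular samples. The summed signal of all 8 was 242 to 296 in growth plate samples and 259 to 418 in articular samples. Of 7 leukocyte markers with a probe set, PTPRC, CD163, TYROBP and CD74 were above the floor on no array, and the sum was 115 to 163 in growth plate samples and 62.1 to 84.3 in articular samples. Above the floor were 2 of the markers in native growth plate cartilage, 1 in the day 10 growth plate culture and 0 on the other arrays. The sums therefore hold signals under the floor and give no order between the tissues. Of 5 adipocyte markers with a probe set, PPARG was above the floor on no array, and the sum was 463 to 1448 in growth plate samples and 462 to 885 in articular samples. Most of that sum was LPL on every array, with 1361, 403 and 879 in growth plate samples and 420, 392 and 713 in articular samples.

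Of 5 pericyte and smooth muscle markers that passed the filter, 4 (ACTA2, TAGLN, CNN1 and DES) were at least 2-fold higher in culture, and PDGFRB, given above, was not. By the same rule 6.5% of all genes were higher. The median log2 difference of these 5 was 2.06 for culture minus native, beside 1.98 for the 7 genes. For day 20 minus day 10 it was 0.80, beside 1.96 for the 7 genes. RGS5 was above the floor on 1 array, the day 10 articular culture, at 619. The summed signal over the 6 of 9 markers with a probe set was 13314, 18572 and 25937 in native, day 10 and day 20 growth plate samples and 6142, 22236 and 31309 in the articular ones. CNN1, a calponin of contractile cells, had 42.5, 157 and 561 in growth plate samples and 37.8, 188 and 1472 in articular samples, and ACTA2 had 11456, 14481 and 17679 and 2642, 14768 and 19493. These genes are also expressed by cultured mesenchymal cells that form stress fibres. Of the osteoblast markers, 6 of 7 had a probe set and PHEX was above the floor on no array. The sum, nearly all of it SPP1 and IBSP, was 24867, 25785 and 29689 in growth plate samples and 19418, 11090 and 11027 in articular samples. Its 2 main genes took opposite courses in articular samples, where IBSP, a bone sialoprotein, had 53.2, 309 and 5958, higher at each later stage, and SPP1 had 19241, 10658 and 4955. In growth plate samples IBSP had 10642, 14034 and 15675 and SPP1 had 14127, 11654 and 13958. The hypertrophic chondrocyte markers, all 6 of them with a probe set and IBSP among them, summed to 16918, 25078 and 23564 in growth plate samples and to 327, 945 and 7276 in articular samples. Most of the articular sum at day 20 was IBSP. In articular samples PTH1R had 136, 503 and 1118, ALPL had 24.2, 29.9 and 90.9, and IHH had 69.4, 49.9 and 48.0. COL10A1 was under the floor on every articular array, and MMP13 was above it there only in native tissue, at 39.8. The part of any of these cell types in the levels of the 7 genes was not tested.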

How the data were processed

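The authors deposited 1 linear signal intensity for each probe set and array, computed in GCOS 1.4 (per the submitters' processing notes) from labelled cRNA of 100 ng total RNA per the labels' protocols. The scaling target and any centring are not stated; the trimmed means of the 6 arrays were equal to within a factor of 1.000045, so the values were not normalized again. Detection calls are not included, and the precision is limited by the number of arrays.

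Of 24123 probe sets, 124 controls were left out. The floor, log2 scale and filter are described above. The platform annotation gave 10069 probe sets 1 symbol, 198 several and 13732 none; 9961 of those with a single symbol matched a gene ID in RefSeq (assembly Sscrofa11.1), used for names only. Each gene was represented by its probe set of highest mean log2 signal.

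An additive model of tissue and stage was fitted to all genes (R 4.3.3; limma 3.58.1). The variance prior followed the intensity, on 2 residual degrees of freedom and 3.74 prior ones. A call needed an adjusted p (Benjamini-Hochberg) under 0.05 and a 2-fold change. Of each related list, the named genes were up to 4 with the largest culture difference, and for each of the 7 genes the 2 of most similar course; SPARC, THBS1, PDGFRB, HAPLN1, RGS5, ITGB1, FTH1, FTL and marker genes that were above the floor on no array were named after their values were seen. COL10A1 and IHH were also named, though neither was among the 4 of its list. The 7 genes and all lists were chosen with earlier results of these data known. Alternatives were quantile normalization, median centring, floors at the 25th and 60th percentile, a pseudocount of 50, averaging a gene's probe sets, other filters, no intensity trend, a 4-fold rule and leaving out each array in turn. Protein and promoter sequences were not used here.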

Additional observations from a re-analysis of the deposited data

Results flagged for a closer look

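Some of the 7 genes differed from native tissue in opposite directions in the 2 tissues. With 1 array per condition these differences between tissues were not tested. At day 10 the log2 difference to native tissue was -1.89 in growth plate and 4.09 in articular samples for THBS2. For THY1 it was -1.19 in growth plate and 2.03 in articular samples. For POSTN it was -0.10 and 1.23, with the day 10 growth plate and the native articular signal under the floor, so the growth plate value is a difference between a signal just above the floor and the floor itself. Of all genes, 17.5% were lower at day 10 in growth plate and higher at day 10 in articular samples, and 0.768% were so by at least 2-fold in each, as THBS2 and THY1 were. At day 20 FAP differed from native tissue by -0.39 in growth plate and 0.19 in articular samples, both under 2-fold.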

How the results depend on the processing

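The 39 differences of at least 2-fold among the 63 combinations of a gene and a pair of arrays kept their direction in every alternative of scaling, floor and pseudocount that left a difference, and 0 reversed. All 39 remained at least 2-fold under quantile normalization, median centring and the lower floor, 38 with the pseudocount, 35 with the higher floor and 32 on averaging a gene's probe sets, which brings in probe sets under the floor. Those lost with the higher floor or the pseudocount were all differences of POSTN. Median centring moved the median of all genes by at most 0.25 on the log2 scale, and lowered the native growth plate minus articular one.

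Counts of the 7 genes changed little with scaling and floor. On the mean over stages 1 gene was higher in growth plate by 2-fold or more and 1 was lower; the lower count was 2 under quantile normalization and median centring, and 0 with the higher floor, on averaging probe sets and under a 4-fold rule. The 5 genes higher in culture than native tissue became 4 with the higher floor and on averaging probe sets. The 7 genes higher at day 20 than at day 10 became 6 under quantile normalization, with the pseudocount and on averaging probe sets. Under the 4-fold rule 3 genes were higher in culture than native tissue, and 3 higher at day 20 than at day 10. Leaving out 1 array at a time gave 1 to 2 genes higher and 0 to 2 lower in growth plate, and 3 to 6 higher and 0 to 1 lower in culture. It gave 4 to 7 higher at day 20, and 0 lower. The 5 genes higher in culture became 3 without the native articular array, and the 7 higher at day 20 became 4 without either growth plate culture, where only the articular pair is left.

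Calls over all genes with limma were few and depended on the processing. For growth plate minus articular, the 2 higher and 1 lower calls became 4 and 2 under quantile normalization, 4 and 4 under median centring, and 1 and 0 on averaging probe sets and with no intensity trend. They became 0 and 0 with no filter and with the filter on all 6 arrays. The lower calls were 2 with the lower floor, and 3 with the higher floor and with the pseudocount. For culture minus native, the 0 higher and 0 lower calls became 4 and 5 under median centring, 2 and 3 with the higher floor, 1 and 4 with the pseudocount, and 0 and 3 with the filter on all 6 arrays. Leaving out 1 array at a time gave 0 to 6 higher and 0 to 7 lower calls for the tissues. It gave 0 to 584 and 0 to 302 for culture, the most without native growth plate cartilage. It gave 0 to 108 and 0 to 115 for day 20 minus day 10, the most without a native array; without native growth plate cartilage the counts were 108 and 115, and without native articular cartilage 99 and 105. The cause of these changes was not tested. The fit itself sets arrays side by side within tissue and stage; with 1 array per condition there is no replicate number to add as a block.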
